A study of Mus musculus with 7 samples.

Results

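Voltage-gated sodium and calcium channels are built from a large pore-forming subunit and smaller auxiliary subunits. Every row of the expression table whose symbol begins with Scn and a digit, or with Cacna, Cacnb or Cacng, was taken, which gave 33 of 22016 rows. The sodium leak channel gene Nalcn was not included, and Scn8a, Scn9a, Cacna1b, Cacna1c, Cacnb1, Cacnb3 and Cacnb4 were not analysed here. The 33 genes were 8 sodium pore and 4 sodium beta subunits, 8 calcium pore subunits of the Cav1, Cav2 and Cav3 types, 4 alpha2delta subunits, 1 calcium beta subunit and 8 gamma subunits.

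RNA on ribosomes was purified from the ventral striatum of C57/Bl6N mice, 8 to 12 weeks of age and of both sexes, by translating ribosome affinity purification (TRAP), in which a tagged ribosome is pulled down with the RNA on it. All mice carried the ChAT bacTRAP transgene, which puts the tag in cells where the Chat promoter is active, and were p11 fl/fl, with both alleles of S100a10 (which encodes p11) floxed. The 4 KO libraries came from mice with ChAT Cre and the 3 WT libraries from mice labelled WT in place of ChAT Cre, so Cre and the deletion differ together between the groups and cannot be told apart. Each library pooled 6 ventral striata of 3 mice, and the p-values measure the spread between pools. Y-linked RNA was listed at 0 in WT2, WT3 and KO2 and was present in WT1, KO1, KO3 and KO4. The sex of the pools was thus not balanced between the groups.

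Opening of sodium channel pores drives the rise of the action potential, and in cholinergic interneurons, which fire without synaptic input, a persistent part of the sodium current also sets the pace of firing. Calcium channel pores admit calcium during spikes, which triggers transmitter release at terminals and opens calcium-activated potassium channels that shape the pause between spikes. Auxiliary beta and alpha2delta subunits carry pores to the membrane and tune their gating. Most gamma subunits in brain are instead known as transmembrane AMPA receptor regulatory proteins (TARPs), which traffic and modulate AMPA-type glutamate receptors.

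Values were FPKM, in which fragments are divided by gene length and by the library total. Levels of different genes can thus be compared only roughly, since trends with GC content and transcript length were not removed from them. Values of single pools are given below in the order WT1, WT2, WT3 and KO1, KO2, KO3, KO4. Summed FPKM ran from 379417 to 511328 per library, and the depth was unknown. S100a10 checked the labels, with 329.5, 332.7 and 387.5 FPKM in the WT pools against 127.1, 138.8, 189.8 and 89.2 in the KO pools (log2 fold change -1.40, SE 0.22, limma adjusted p = 0.0098). That call was lost without WT1 (adjusted p = 0.059) or WT2 (adjusted p = 0.058), with fold changes of -1.58 to -1.22 whichever library was left out. Chat, the acetylcholine-synthesizing enzyme that defines these cells, was listed at 128.0 to 306.4 FPKM across the libraries. The cholinergic markers (10 of 11 had a row, and 0 of these passed) summed to 1615 to 1754 FPKM in WT and 1313 to 1483 FPKM in KO. KO1 stood apart in markers of other cells. Its medium spiny neuron markers (8 of 11 listed had a row) summed to 356.6 FPKM, beside 182.7 to 258.3 FPKM in the other libraries. Within that list Tac1, a neuropeptide precursor, was at 50.6 FPKM in KO1 and at 4.0 to 7.2 FPKM elsewhere, while Rasd2, the most abundant member in the other libraries, was lowest in KO1 at 82.3 FPKM. Oligodendrocyte markers (6 of 7) summed to 77.3 FPKM in KO1, beside 31.9 to 46.9 FPKM. For the 7 markers of other interneurons the sums were 95.5 FPKM in KO1 and 15.8 to 36.8 FPKM elsewhere, and for 6 astrocyte markers 40.5 and 16.3 to 23.9 FPKM. Microglial markers summed to at most 1.9 FPKM in any library, and no listed marker was at 0.0 in all of them. Fewer cells of a type and less RNA per cell cannot be told apart in such pools.

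Among the 33 genes, 22 reached the filter of a mean of 1 FPKM over the 7 libraries. Of these 22, 0 passed the threshold, an adjusted p of at most 0.05, with limma over all 10089 tested rows, where 1.74% passed, 98 of them higher (0.971%) and 78 lower (0.773%) in KO. A positive log2 fold change was found for 12 of the 22, beside 53.4% of all tested rows, and a negative one for 10. The log2 fold change, the difference of KO from WT in mean log2(FPKM + 1), had a median of 0.06, beside 0.03 over all tested rows. An unadjusted limma p under 0.05 was found for 5 of the 22 (22.7%), 2 higher and 3 lower in KO. Of all tested rows 18.8% had one, 10.1% higher and 8.69% lower. The groups did not overlap for 4 of the 22 (18.2%), 1 higher and 3 lower, beside 17.4% of all tested rows (9.11% higher and 8.29% lower). Both shares were near those of all rows. The 95% confidence intervals still allowed sizeable changes, with standard errors of 0.14 to 0.39 on the log2 scale. The nearest to the threshold was the TARP gene Cacng7, higher in KO (adjusted p = 0.052).

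**Figure D1:**
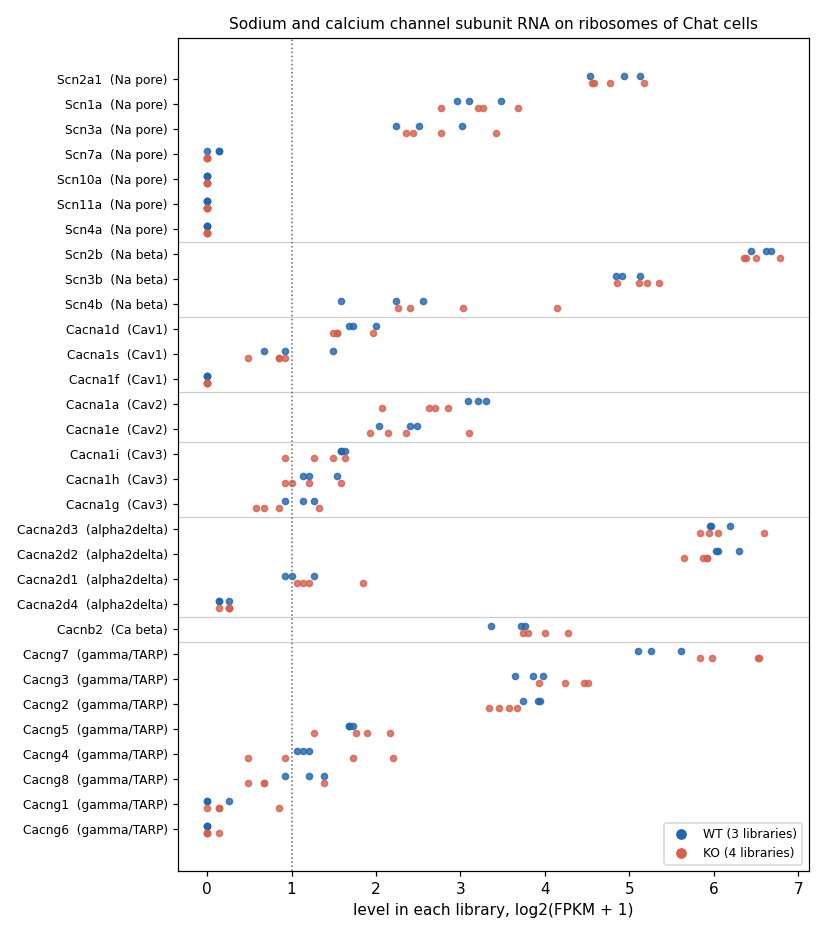
Level of 31 of the 33 subunit genes in each library as log2(FPKM + 1), grouped by class and ordered within a class by mean. Blue points are the 3 WT and red points the 4 KO libraries, and the dotted line marks 1 FPKM. Scn2b, Cacna2d3, Cacna2d2 and Cacng7 had the highest means, and 4 genes were listed at 0.0 in all 7 libraries.

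Among the 8 sodium pores analysed, which did not include Scn8a and Scn9a, the RNA was mainly that of Scn2a1 (current symbol Scn2a). Scn2a1 encodes NaV1.2, a channel of axon initial segments and unmyelinated axons. NaV1.2 RNA stood at 22.2, 29.6 and 33.9 FPKM in the WT pools against 35.2, 26.2, 22.6 and 23.0 in the KO pools. The groups overlapped over nearly their whole range, and the log2 fold change was -0.09 (95% confidence interval -0.52 to 0.33, limma adjusted p = 0.83). Scn1a, which encodes NaV1.1 and is known for its role in fast-spiking interneurons, stood at 8.2 ± 1.78 FPKM (SD, n = 3) in WT against 8.6 ± 2.47 (SD, n = 4) in KO. Scn3a, a pore most abundant in the embryonic brain, stood at 5.17 ± 1.75 FPKM in WT against 6 ± 2.58 FPKM in KO. The WT ranges of Scn1a and Scn3a overlapped, at 6.8 to 10.2 and 3.7 to 7.1 FPKM, while the lowest WT value of Scn2a1 lay above both. The fold changes of Scn1a and Scn3a were 0.04 and 0.155 (limma adjusted p = 0.94 and 0.80).

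The other 5 sodium pores were below the filter. Scn7a, a sodium-sensing relative, was listed at 0.1 FPKM in WT2 and WT3 and at 0.0 in the other libraries. Scn4a, the skeletal muscle pore, and Scn10a and Scn11a, pores of sensory neurons, were listed at 0.0 FPKM in all 7 libraries. Scn10a encodes NaV1.8, which p11 is known to bind and bring to the membrane in rodent sensory neurons. A value under 0.05 FPKM is listed as 0.0 in this table, so a trace below that step would not be seen. Scn1a, Scn2a1, Scn3a and Scn7a lie in a cluster on chromosome 2 (65457118 to 66784914, mm10), and Scn10a and Scn11a lie together on chromosome 9 (119608456 to 119825456).

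Sodium beta subunits, single-pass membrane proteins that modulate gating and bind cell adhesion molecules, summed to 147 ± 11.1 FPKM in WT. The 8 sodium pores analysed, without Scn8a and Scn9a, summed to 42.2 ± 9.2 FPKM in WT. Scn2b, whose beta2 protein is linked to the pore by a disulfide bond, had the highest mean of the 33 genes. It was listed at 101.5, 85.5 and 97.5 FPKM in the WT pools against 109.0, 89.7, 80.7 and 82.2 in the KO pools, and the groups overlapped (log2 fold change -0.075, limma adjusted p = 0.83). Its lowest value in any library was above the highest of Scn3b, which stood at 30.2 ± 3.22 FPKM in WT against 34.3 ± 4.98 FPKM in KO (0.17, limma adjusted p = 0.59). The WT level of Scn3b did not differ from that of Scn2a1, 28.6 ± 5.92 FPKM, beyond their spread.

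Scn4b, whose beta4 protein has a tail that blocks open pores and gives resurgent sodium current, is known as an abundant RNA of medium spiny neurons. Its values were 2.0, 3.7 and 4.9 FPKM in the WT pools against 16.6, 4.3, 3.8 and 7.2 in the KO pools. The log2 fold change was 0.83 with a wide interval (-0.02 to 1.69, limma adjusted p = 0.28). KO1 was the highest library and KO4 the next, which was also the order of the KO libraries in the summed markers of medium spiny neurons (356.6 and 243.9 FPKM) and of oligodendrocytes (77.3 and 46.9 FPKM). The WT pools did not follow these sums. Scn4b was highest there in WT3, where the sums were lowest, at 205.6 and 31.9 FPKM. WT2, with Scn4b at 3.7 FPKM, had a higher medium spiny neuron sum (258.3 FPKM) than KO4. The part of other cells in the Scn4b values was not tested, and without KO1 the fold change was 0.44 (adjusted p = 0.36). Scn2b and Scn4b are neighbours on chromosome 9 (45117782 to 45154152), and the WT mean of Scn2b was 94.8 FPKM against 3.53 for Scn4b.

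None of the calcium pores analysed, which did not include Cacna1b and Cacna1c, exceeded 8.9 FPKM in any library. Of the Cav1 (L-type) pores, Cacna1d, whose channel opens at more negative voltages than other L-type pores, was listed at 2.3, 2.2 and 3.0 FPKM in the WT pools. In the KO pools it stood at 2.9, 1.8, 1.9 and 1.9 FPKM (log2 fold change -0.17, limma adjusted p = 0.69), with KO1 apart from the other KO pools. Cacna1s, the skeletal muscle pore, ran from 0.4 to 1.8 FPKM and was below the filter, and Cacna1f, the pore of photoreceptors, was listed at 0.0 in every library.

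Of the Cav2 pores, which serve transmitter release, Cacna1a encodes the P/Q-type channel. Cacna1a values were 7.5, 8.2 and 8.9 FPKM in the WT pools against 6.2, 5.2, 3.2 and 5.5 in the KO pools. The highest KO value lay below the lowest WT value, and the KO mean was 61.3% of the WT mean. On the log2 scale the difference was -0.64 with an SE of 0.20 (95% confidence interval -1.08 to -0.19, limma adjusted p = 0.13), which did not pass over all rows. The fold change was -0.36 after trends with GC content and transcript length were removed (adjusted p = 0.26). Cacna1e, the R-type pore, was listed at 3.1, 4.6 and 4.3 FPKM in the WT pools against 7.6, 3.4, 2.8 and 4.1 in the KO pools, so that KO1 alone stood above the WT range. Its log2 fold change was 0.07 with all pools and -0.17 without KO1 (limma adjusted p = 0.91 and 0.66). Within a library, the Cacna1a level over that of Cacna1e was 2.42, 1.78 and 2.07 in the WT pools and 0.816, 1.53, 1.14 and 1.34 in the KO pools. These ratios were chosen after the values were seen and are given without a test.

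The Cav3 (T-type) pores open at low voltage and support rebound firing. Cacna1i had the highest mean, at 2.0, 2.0 and 2.1 FPKM in the WT pools against 2.1, 1.4, 0.9 and 1.8 in the KO pools (log2 fold change -0.27, limma adjusted p = 0.51). KO1 equalled the highest WT value and the other KO pools lay below the WT range. Cacna1h ran from 0.9 to 2.0 FPKM (-0.11, limma adjusted p = 0.83). Cacna1g, with a mean of 0.986 FPKM and a range of 0.5 to 1.5, was just short of the filter.

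**Figure D2:**
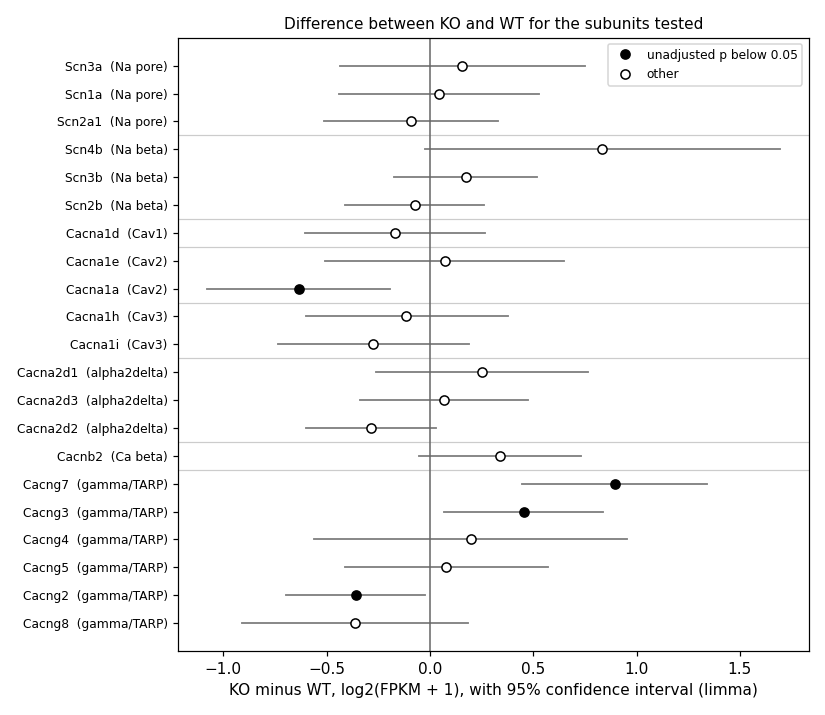
Difference of KO from WT in log2(FPKM + 1) for 21 of the 22 subunit genes tested, with 95% confidence intervals from limma, grouped by class. Filled points had an unadjusted p below 0.05. The intervals of Cacng7 and Cacng3 lay above 0 and those of Cacna1a and Cacng2 below it, and 0 of the 22 passed after adjustment over all rows.

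The alpha2delta subunits sit on the outer face of the membrane and raise the number of channels there. They included 2 genes, Cacna2d2 and Cacna2d3, listed at far higher levels than any calcium pore analysed here. Cacna2d2 was listed at 64.3, 65.4 and 77.5 FPKM in the WT pools against 59.5, 59.4, 49.2 and 57.6 in the KO pools. All 4 KO values lay below the 3 WT values, and the log2 fold change was -0.29 (95% confidence interval -0.60 to 0.03, limma adjusted p = 0.31). It was -0.10 after removal of the GC content and length trends (adjusted p = 0.70). Cacna2d3 was listed at 61.5, 61.1 and 72.3 FPKM in the WT pools against 95.9, 65.3, 56.2 and 60.4 in the KO pools. KO1 was the only pool above the WT range, and the fold change of 0.07 with all pools became -0.10 without it (limma adjusted p = 0.88 and 0.71). In WT the 2 genes stood at 69.1 ± 7.32 and 65 ± 6.35 FPKM, with the level of Cacna2d3 at 0.956, 0.934 and 0.933 of that of Cacna2d2 within each pool. In the KO pools it was 1.61, 1.1, 1.14 and 1.05 of that level, a ratio also chosen after the values were seen and not tested. Cacna2d1, a binding site of gabapentin together with Cacna2d2, ran from 0.9 to 2.6 FPKM, with the highest value in KO1 (0.25, limma adjusted p = 0.60). Cacna2d4, known from the retina, did not exceed 0.2 FPKM.

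Cacnb2 encodes a cytoplasmic beta subunit, which binds the loop between the first domains of the pore. The values were 9.3, 12.1 and 12.6 FPKM in the WT pools against 12.4, 12.9, 15 and 18.3 in the KO pools. Only KO1 lay within the WT range, and the log2 fold change was 0.34 (95% confidence interval -0.05 to 0.73, limma adjusted p = 0.33). It was 0.11 after removal of the GC content and length trends (adjusted p = 0.80) and 0.21 without WT1 (adjusted p = 0.68).

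The gamma subunits summed to 71.1 ± 7 FPKM in WT against 110 ± 22.4 FPKM in KO, and Cacng7 was the most abundant of them in every library. It encodes TARP gamma-7, of the type II TARPs, which act mainly on the gating and conductance of AMPA receptors. The gene lies on the plus strand of chromosome 7 (3332955 to 3368221, mm10, ENSMUSG00000069806), and no exon of another annotated gene overlaps its exons. Because Cacng7 was the subunit nearest to the threshold, the 250 bases before its RefSeq start on the plus strand, chr7:3332575-3332824 (GRCm38.p6), are shown in lower case, with a GC box, GGGCGG read on the opposite strand, in capitals.
Cacng7 promoter: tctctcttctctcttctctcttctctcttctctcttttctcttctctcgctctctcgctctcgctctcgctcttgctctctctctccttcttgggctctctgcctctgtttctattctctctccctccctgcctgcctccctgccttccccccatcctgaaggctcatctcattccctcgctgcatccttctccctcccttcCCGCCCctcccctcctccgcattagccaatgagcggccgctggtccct
Of these bases 84% were C or T, against a median of 50% over the 32851 windows of the same length before RefSeq starts, and 0.0183% of the windows reached that share. A GC box on either strand was found in 32.7% of the windows, and neither the TATA box TATAAA nor the cyclic AMP response element TGACGTCA was in the Cacng7 window (12.4% and 1.55% of the windows hold them). The RefSeq start lies 130 bases before that of GENCODE. A match is a run of letters and not a measured site.

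Cacng7 was listed at 37.2, 33.4 and 47.8 FPKM in the WT pools against 91.6, 62.0, 56.2 and 90.6 in the KO pools. All 4 KO values lay above the 3 WT values, and the KO mean was 190% of the WT mean. The means were 39.5 ± 7.46 FPKM (SD, n = 3) in WT against 75.1 ± 18.6 (SD, n = 4) in KO. On the log2 scale the difference was 0.89 with an SE of 0.205 (95% confidence interval 0.45 to 1.34, limma adjusted p = 0.052), just outside the threshold. With a library left out it passed in 2 of 7 fits, without KO1 (0.79, adjusted p = 0.043) and without KO3 (1.02, adjusted p = 0.046). In the other 5 fits the limma adjusted p was 0.21 (WT1 left out), 0.22 (WT2), 0.073 (WT3), 0.10 (KO2) and 0.11 (KO4). Among the KO pools, KO1 and KO4 had both the highest Cacng7 and the highest summed markers of medium spiny neurons and oligodendrocytes. Among the WT pools, WT3 had the highest Cacng7 and the lowest of both sums. In KO2 and KO3, with Cacng7 at 62.0 and 56.2 FPKM, the medium spiny neuron sums were 182.7 and 185.4 FPKM, below the WT range of 205.6 to 258.3 FPKM. Rasd2, the largest part of these sums, was at 101.1 and 105.3 FPKM there, against 138.6, 162.5 and 135.5 FPKM in the WT pools. The oligodendrocyte sums of KO2 and KO3, 35.1 and 33.7 FPKM, lay within the WT range of 31.9 to 37.1 FPKM. The part of other cells in the Cacng7 values was not tested.

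Type I TARPs traffic AMPA receptors to the synapse, and 2 of them had fold changes of opposite sign that did not pass over all rows. Cacng3 was listed at 14.8, 13.5 and 11.5 FPKM in the WT pools against 21.7, 17.8, 14.2 and 21 in the KO pools. The WT1 value lay above that of KO3, and the log2 fold change was 0.45 (SE 0.18, limma adjusted p = 0.20). Cacng2, the stargazin gene, was listed at 14.1, 12.4 and 14.4 FPKM in the WT pools against 10.9, 9.1, 10 and 11.7 in the KO pools. All KO values lay below the WT values, with a KO mean of 76.5% of the WT mean (-0.36, SE 0.15, limma adjusted p = 0.23). The Cacng7 level was 2.64, 2.69 and 3.32 times that of Cacng2 in WT1 to WT3 and 8.4, 6.81, 5.62 and 7.74 times in KO1 to KO4. Over Cacng3 the Cacng7 level was 2.51, 2.47 and 4.16 times in WT and 4.22, 3.48, 3.96 and 4.31 times in KO, and the groups overlapped. These ratios were likewise chosen after the values were seen and carry no test.

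The remaining gamma genes were low. Cacng5, a further type II TARP, was 2.23 ± 0.0577 FPKM in WT against 2.5 ± 0.868 FPKM in KO, with its lowest value, 1.4 FPKM, in KO1. Cacng4, a type I TARP, was 1.2 ± 0.1 FPKM in WT against 1.8 ± 1.45 FPKM in KO. Cacng8, the type I TARP known for its role in the hippocampus, whose mean of exactly 1 FPKM met the filter, was 1.27 ± 0.351 FPKM in WT against 0.8 ± 0.542 FPKM in KO, and a further annotated gene on its own strand overlaps its exons. None of these 3 had a limma adjusted p under 0.45. Cacng1 and Cacng6, gamma subunits first known from muscle, ran from 0.0 to 0.8 and from 0.0 to 0.1 FPKM. Cacng7, Cacng8 and Cacng6 lie side by side on chromosome 7 (3332955 to 3435667). Myadm, the nearest tested gene on the other side of Cacng7, stood at 25.9 ± 1.55 FPKM in WT against 28.4 ± 3.24 FPKM in KO (0.12 on the log2 scale, limma adjusted p = 0.69).

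**Figure D3:**
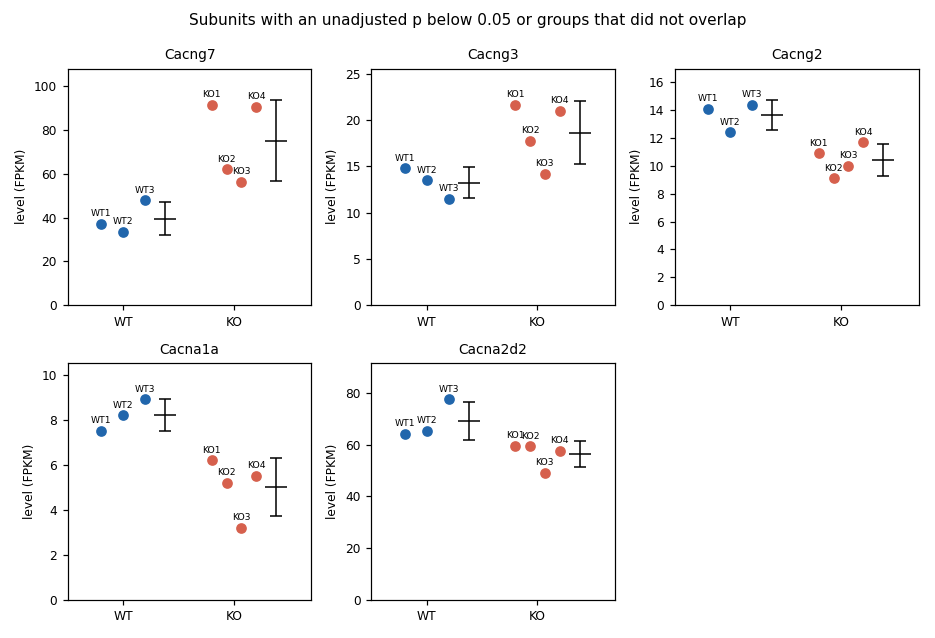
Level in FPKM of 5 subunit genes with an unadjusted p below 0.05 or with groups that did not overlap, in each WT (blue) and KO (red) library, on axes that start at 0. Bars beside the points are the mean and SD (n = 3 and n = 4). Cacng7 was above, and Cacng2, Cacna1a and Cacna2d2 were below, all WT values in all 4 KO libraries, while Cacng3 overlapped.

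KO1 was the highest of the 4 KO pools for 17 of the 22 tested subunits (77.3%), beside 30.2% of all tested rows, and KO3 was the lowest for 13 (59.1%), beside 19.4%. In WT, WT3 was the highest pool for 15 of the 22 (68.2%), beside 36.8% of all tested rows. Without KO1, 5 of the 22 turned from a positive to a negative fold change, namely Cacna1e, Cacna2d3, Cacng4, Scn1a and Scn3a. The balance became 7 positive and 15 negative, and the median log2 fold change -0.14, beside 0.04 over all rows. In that comparison Cacng7 was the 1 member that passed, and 6 of the 22 (27.3%) had an unadjusted limma p under 0.05, beside 22.7% of all tested rows. Among these were Cacng7 and Cacnb2, higher in KO, and Cacna1a, Cacna2d2 and Cacng2, lower in KO. The part of the other cells in KO1 in these values was not tested.

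**Figure D4:**
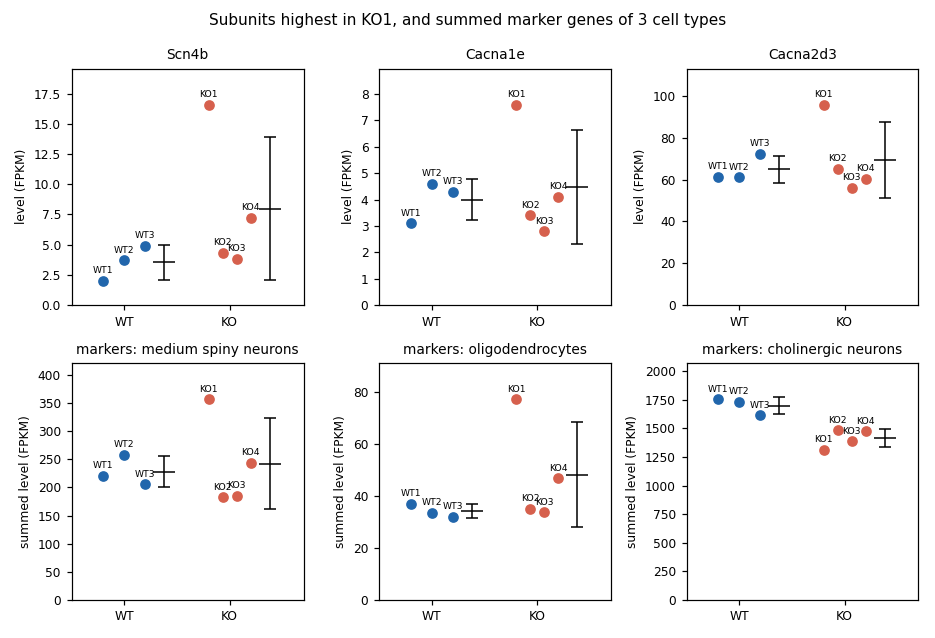
Level in FPKM of Scn4b, Cacna1e and Cacna2d3 (top) and summed FPKM of marker genes of medium spiny neurons, oligodendrocytes and cholinergic neurons (bottom) in each library, with mean and SD beside the points (n = 3 WT, n = 4 KO). KO1 had the highest value for the 3 subunits and for both lists of other cells, and the lowest for the cholinergic list.

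Proteins that bind these channels were read from the same fit. Of 10 tested sodium channel partners, such as ankyrins and fibroblast growth factor homologous factors, 0 passed with limma, 7 fold changes were positive and 3 negative, and their median was 0.09. Fgf12, which binds the tail of the pore, stood at 119 ± 19.5 FPKM in WT against 143 ± 16.3 FPKM in KO (0.27, limma adjusted p = 0.40). Ank3, ankyrin-G, which anchors sodium channels at the axon initial segment, had a log2 fold change of -0.02. Nedd4l, a ubiquitin ligase that removes sodium channels from the membrane, was the 1 with an unadjusted p under 0.05, at 20.1 ± 3.66 FPKM in WT against 27.9 ± 4.7 FPKM in KO (0.45, limma adjusted p = 0.20).

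Of 15 tested rows of calcium channel partners, 2 passed, both lower in KO, beside 0.773% of all tested rows, and the median was -0.32. Unadjusted limma p-values under 0.05 were found for 8 of the 15 rows, 1 higher and 7 lower in KO, beside 10.1% and 8.69% of all tested rows. The 7 lower rows include 2 rows of the same gene, Rims1. This list was chosen with earlier results of these data known, so its counts beside those shares are no test of the list. Cabp1, a calmodulin-like protein that binds calcium channel pores, was listed at 30.7, 29.2 and 25.5 FPKM in the WT pools against 9.0, 14, 12.1 and 14.7 in the KO pools. The KO values lay far below the WT values, and Cabp1 fell by 1.15 on the log2 scale (SE 0.18, limma adjusted p = 0.0082). In the authors' deposited table Cabp1 had a log2 fold change of -1.23 and an adjusted p of 0.003 from their own comparison. The largest adjusted p in that table was 0.0499, and 0 of the 33 subunits was in it. Cabp1 no longer passed without WT1 (-1.09, adjusted p = 0.061) or without WT2 (-1.13, adjusted p = 0.066).

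Rims1, a scaffold that tethers Cav2 channels to release sites, was the other partner that passed. Its row was listed at 25.4, 36.7 and 36.6 FPKM in the WT pools against 18.9, 15.5, 17.4 and 15.2 in the KO pools (-0.92, limma adjusted p = 0.021), and its second row had a log2 fold change of -0.82 (adjusted p = 0.070). Its call was lost without WT2 (-0.83, limma adjusted p = 0.13), WT3 (0.095), KO2 (0.084) or KO4 (0.056) and with a term for Y-linked RNA (adjusted p = 0.055). Rimbp2, which links Rims proteins to calcium channels, stood at 26.5 ± 4.2 FPKM in WT against 18.3 ± 1.66 FPKM in KO (-0.50, adjusted p = 0.12). Stx1a, a syntaxin of the release machinery that binds Cav2 channels, stood at 8.6 ± 1.93 FPKM in WT against 5.38 ± 1.88 FPKM in KO (-0.62, limma adjusted p = 0.19). Cachd1, a relative of the alpha2delta subunits, was 2.17 ± 0.815 FPKM in WT against 1.15 ± 0.129 FPKM in KO (-0.53, limma adjusted p = 0.21). Rims2, a relative of Rims1, had a log2 fold change in the other direction, with 7.33 ± 1.26 FPKM in WT against 11.2 ± 1.92 FPKM in KO (0.55, limma adjusted p = 0.14). The 10 cholinergic markers were also lower in KO as a sum, and their part in these values was not tested. The difference in the sum lay mainly in Slc18a3, the vesicular acetylcholine transporter, at 543 FPKM in WT and 322 FPKM in KO (limma adjusted p = 0.092). Without it, a choice made after the values were seen, the sums overlapped, at 1078 to 1202.5 FPKM in WT and 1048 to 1138.5 FPKM in KO. Lhx8, a transcription factor of these cells, was higher in all KO pools than in any WT pool, at 174 FPKM in WT and 208 FPKM in KO (limma adjusted p = 0.35).

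Of the 6 AMPA receptor subunits, cornichons and scaffolds to which TARPs bind, 0 passed with limma, and 4 fold changes were positive and 2 negative. Dlg4, the postsynaptic scaffold PSD-95 that holds type I TARPs, was the 1 with an unadjusted p under 0.05, at 51.4 ± 2.79 FPKM in WT against 35 ± 8.07 FPKM in KO (-0.57, limma adjusted p = 0.13). Gria1, Gria2 and Gria4, receptor subunits, had log2 fold changes of -0.16, 0.15 and 0.33, each with a 95% confidence interval that included 0. Cnih2, a cornichon that binds AMPA receptors beside TARPs, stood at 22.8 ± 3.86 FPKM in WT against 28.7 ± 4.17 FPKM in KO (0.32, limma adjusted p = 0.33).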

How the data were processed

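Ribosome-bound RNA was measured in 7 libraries, 3 WT and 4 KO, grouped by sample title. Per the labels' protocols, cDNA came from 1 ng of RNA per purification (Ovation V2) and was sequenced from TruSeq V2 libraries. Tools listed without a role in the submitters' processing notes are DESeq 1.10.1, Cufflinks 2.1.1, TopHat and TopHat2 2.0.8, and the build is mm10. How strand was handled is not given in the sources used here. FPKM values per library, rounded to 0.1, were deposited by the authors for 22016 rows. They also deposited a table of 113 genes with mean FPKM per group, a fold (ratio), its log2 value, a p-value and an adjusted p-value, per the file headers.

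Values were transformed to log2(FPKM + 1), the 10089 rows whose mean reached 1 FPKM were tested, and KO was compared with WT by two-sided moderated tests (limma 3.58.1, R 4.3.3, variance trend on, Benjamini-Hochberg over all rows, threshold 0.05). The fold change understates that of low genes. Full values are given for subunits with an unadjusted p under 0.05, groups that do not overlap or the highest mean of their class, and for partners with an unadjusted p under 0.05; further members are described by range, and some members and partners are not reported here. The members and lists were chosen with earlier results of these data known. Of the 33 members 23 had a RefSeq promoter window, and GENCODE M21 (GRCm38) gave coordinates, transcript GC content and length. Exons of Cacna1a, Cacna1d, Cacna1h, Cacna1s, Cacna2d2, Cacnb2 and Cacng2 overlap genes on the opposite strand. Whether reads of the overlapping genes were kept apart is unknown, since the handling of strand is not given. Chdh, which overlaps Cacna1d, and Tpsg1, which overlaps Cacna1h, did not exceed 0.1 FPKM in any library. FPKM is no count, so neither counting intervals nor floors are given. Alternatives were other pseudocounts, filters and scalings, limma settings, a replicate block, a term for Y-linked RNA (listed at 0 in WT2, WT3 and KO2), summed rows and each library left out; the removal of GC content and length trends was chosen after seeing the data.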

Additional observations from a re-analysis of the deposited data

Results flagged for a closer look

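In groups of 4, a KO value of 6 subunits stood so far from the other 3 that the gap, as a part of the group's range, exceeded Dixon's 95% critical value. Such gaps were looked for in 27 genes, S100a10 included, and chance alone gives about 1 such flag in 20 groups. In KO1, Cacna1d (2.9 FPKM, beside 1.8 to 1.9 in the other KO pools), Cacna2d1 (2.6 FPKM) and Cacng1 (0.8 FPKM) stood high. In KO3, Cacng8 stood high at 1.6 FPKM and Cacng6 at 0.1 FPKM. Cacna2d4 was at 0.1 FPKM in KO4. For Cacng6 and Cacna2d4 a gap of 1 rounding step of 0.1 FPKM was enough.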

How the results depend on the processing

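Of the 20 alternatives, 14 left the count of subunits that passed at 0. The count was 1 (Cacng7) with a mean of at least 5 FPKM (adjusted p = 0.048), robust variances (0.045) and GC content and length trends removed (0.05 after rounding), and 3 with array weights (Cacng7 and Cacna1a among them, limma adjusted p = 0.0039 and 0.0079). Leaving out each library gave 0 to 1 subunits. The count over all rows, 176, became 83 without a filter, 100 without trend, 1689 with array weights and 18 with the replicate block, and ran from 28 to 375 with a library left out. The partner count of 2 became 10 with array weights, 0 with the replicate block and 1 with the Y-linked term, and ran from 0 to 4 with a library left out. The median log2 fold change of the subunits became -0.13 with array weights and ran from -0.14 (without KO1) to 0.10 (without WT3). S100a10 lost its call with the replicate block (-1.22, adjusted p = 0.083) and had fold changes of -1.58 to -1.22 with a library left out; the calls without WT1 (-1.44, adjusted p = 0.059) and WT2 (-1.44, 0.058) were lost. Directions turned for Scn2a1 with the Y-linked term (0.002) and without WT3 (-0.258 to 0.037 with a library left out), for Cacna1i with GC content and length trends removed (0.029) and for Cacna2d3 without KO1 (-0.096 to 0.157 with a library left out). Signs also turned for Cacna1e (-0.17), Cacng4 (-0.09), Scn1a (-0.11) and Scn3a (-0.07) without KO1, for Cacna1e (-0.07), Scn1a (-0.07) and Scn3a (-0.02) without WT1, for Cacng5 without KO3 (-0.05) and for Cacna1h without WT3 (0.01). The causes were not tested. No pairing by replicate number was seen. The deviations of WT1 and KO1, WT2 and KO2, and WT3 and KO3 from their group means correlated at -0.22, 0.02 and -0.26 across rows. None of KO1, KO2 and KO3 correlated best with its own number. Deviations within groups of 3 and 4 pools offset each other, so they cannot settle whether pools of the same number were prepared together. With the block the limma adjusted p was 0.24 for Cacng7, 0.093 for Cabp1 and 0.20 for Rims1. With the Y-linked term the limma adjusted p was 0.097 for Cacng7 and 0.035 for Cabp1. Rounding to 0.1 FPKM limits values near 1 FPKM.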
